A study of Mus musculus with 12 samples.

Results

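Interleukins are secreted proteins that carry signals between leukocytes and between leukocytes and other cells, and the genes described here are those of the interleukins, their antagonists and their receptor chains. The members were all protein-coding genes whose symbol is Il followed by a digit, leaving out Il4i1, an enzyme of amino acid breakdown. They came to 83 gene records of 43432 in the count table, under 81 symbols: 40 ligands or antagonists and 43 receptor chains. The symbol Il11ra2 stands for 3 records, on chromosome 4 and on the unplaced scaffolds JH584293.1 and JH584294.1. RNA had been extracted from tumours of the mouse pancreatic cancer line CR705, using about 100 mg of tissue for each of 12 samples. In 6 samples the line was an aryl hydrocarbon receptor knockout (AHRKO), and in 6 it was wild type (WT). All 12 share the line, the tumour setting and poly-T selection of mRNA. The sources used here give no host strain, age or sex, no number of clones and no means by which the receptor was removed, and no label says that replicates came from separate animals, so p-values cover no more than the spread among the samples given. The comparison asks how tumours of the knockout line differ from WT tumours, with immune cell infiltration named in the title of the series.

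Most interleukins act on leukocytes through receptors built of a chain that binds the ligand and a shared chain that passes on the signal. The common gamma chain serves the receptors of IL-2, IL-4, IL-7, IL-9, IL-15 and IL-21, the common beta chain serves those of IL-3 and IL-5, and gp130 serves those of IL-6, IL-11 and IL-27. These receptors signal through JAK kinases and STAT transcription factors, whereas receptors of the IL-1 family signal through the adaptor MyD88, and IL-1 and IL-18 are held in check by decoy receptors and secreted antagonists. In pancreatic tumours, interleukins are made by cancer cells, fibroblasts and infiltrating leukocytes alike.

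Library totals ran from 14772343 to 19944273 counts in AHRKO tumours and from 19293174 to 35881469 in WT tumours. Levels are given as CPM, read counts divided by the TMM-scaled library total and put on a common scale. The mRNA of Ahr, the targeted gene, was at 62.5 to 143 CPM in AHRKO tumours and at 101 to 125 CPM in WT tumours, with a log2 fold change of -0.13 ± 0.17 (SE, n = 6 each) and an adjusted p of 0.606 by edgeR's quasi-likelihood test, so Ahr mRNA did not separate the groups. The edited part of the gene is not known here, a count over the whole gene does not show a small edit, and AHRKO and WT below are the groups as labelled. Pan-leukocyte markers differed: 14 of 14 rose, and their summed level was 524 to 3105 CPM in AHRKO tumours against 289 to 561 CPM in WT tumours. Their mean log2 CPM, the leukocyte score, was higher in AHRKO tumours by 1.51 (exact two-sided permutation test, p = 0.00649, n = 6 each). AHRKO replicate 1 stood apart, scoring 7.28, where AHRKO replicates 2 to 6 scored 4.55 to 5.73 and WT libraries 3.55 to 4.62. In it the 6 epithelial and duct markers summed to 622 CPM, against 3155 to 4480 CPM in WT libraries, and the 6 fibroblast markers to 38828 CPM, against 11148 to 26297 CPM in WT. All 8 T cell markers rose (summed 13.4 to 199 CPM in AHRKO, 3.66 to 16.3 CPM in WT), as did 8 of 8 macrophage markers (852 to 6424 CPM in AHRKO, 567 to 1360 CPM in WT), and 4 of 5 NK cell markers (3.93 to 64.8 CPM in AHRKO, 3.40 to 5.58 CPM in WT). The NK marker Ncr1 averaged 0.230 CPM in WT and had enough counts mainly through AHRKO, so its call could hardly be other than a rise. Of the neutrophil, fibroblast, endothelial and epithelial markers none was called. In bulk tissue, more cells of a type and more RNA per cell cannot be told apart.

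Of the 83 members, 50 had enough counts to be tested. In AHRKO tumours 18 rose and 4 fell at an adjusted p under 0.05 (edgeR's quasi-likelihood test, Benjamini-Hochberg over all 15449 tested genes), and 28 were not called. Over all tested genes 15.9% rose and 13.6% fell, 29.5% in all, against 36% and 8% of the tested members. The median log2 fold change, AHRKO over WT, was 0.51 over the tested members and 0.02 over all tested genes. Among receptor chains 14 of 33 rose and 3 fell, and among ligands and antagonists 4 of 17 rose and 1 fell. The receptors that rose included chains of the IL-2, IL-7, IL-10, IL-12, IL-18 and IL-21 receptors, which lymphocytes or macrophages carry. The 4 falls were Il11, Il5ra, Il17re and Il20ra. Of these, Il5ra and Il20ra averaged 0.504 and 0.311 CPM in AHRKO and passed the filter mainly through their WT levels, so a call for either could hardly be other than a fall.

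In 15 of the 18 rises, AHRKO replicate 1 had the highest AHRKO value, as it had for 34 of the 50 tested members, and in 10 of the 18 rises AHRKO replicate 5, the AHRKO library with the lowest leukocyte score, had the lowest. Without AHRKO replicate 1, 17 members rose and 5 fell, and the calls of Il16 and Il1r2 were lost. With the leukocyte score as a covariate 5 members rose and 10 fell, beside 12.2% and 13.6% of all tested genes in that fit. Among the rises Il17rc and Il22ra1 were not called in the main fit. Nor were Il11ra1, Il15ra, Il1r1, Il1rap, Il1rl2, Il33, Il4ra and Il6 among the falls. The groups overlap little in the leukocyte score, so the covariate fit compares them largely outside a shared range. It also moved markers of other cells, with the fibroblast marker Pdgfra at -0.38 without and -2.11 with the covariate, and the epithelial marker Sox9 at 0.47 and 1.87. Il18rap, Il3ra, Il7, Il11 and Il5ra were called in the same direction in both fits and in all 20 alternatives run. For Il5ra the direction was largely set by the filter, as said above, so its agreement across fits adds little. For calls other than these 5, the part of leukocyte content was not tested beyond this fit.

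**Figure D1:**
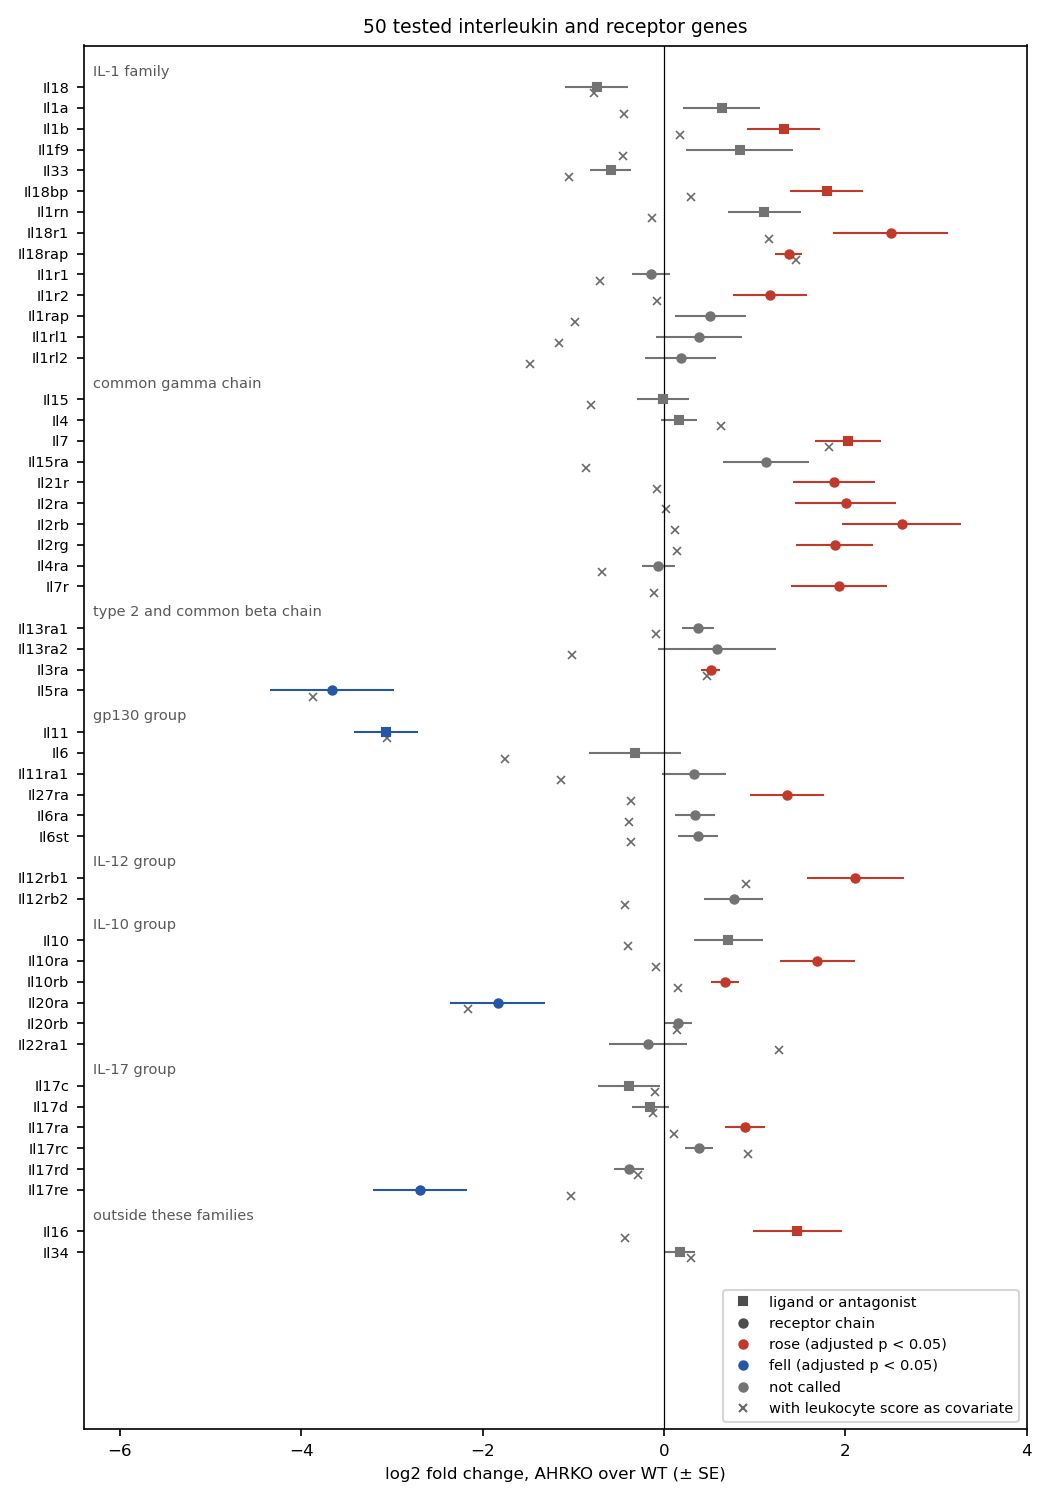
Log2 fold change (x axis, AHRKO over WT, bars ± SE, n = 6 each) of the 50 tested members, by family down the page, with squares for ligands or antagonists, circles for receptor chains, red for the 18 rises, blue for the 4 falls and grey for members not called. Crosses give the same value with the leukocyte score as a covariate: for most rises the cross lies near or below 0, whereas for Il18rap, Il3ra, Il7, Il11 and Il5ra it lies close to the point.

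The promoters of 3 of these 5 genes are shown, since their calls held in every fit. They are the 250 bases before an annotated start, from RefSeq on GRCm38.p6, 5′ to 3′ on the gene's own strand, chosen where the window holds no annotated exon. The motifs searched, on both strands, were GCGTG (the AHR core), GAAA with any 2 bases and a second GAAA (ISRE), TTCNNNGAA (GAS) and TGANTCA (AP-1), and capitals mark the matches. Il18rap, whose window held no match, lies at chr1:40515112-40515361 on the plus strand. Il11 is shown at a downstream start, chr7:4778142-4778391 on the minus strand, with an AP-1 match, and Il5ra at chr6:106749038-106749287 on the minus strand, with an AP-1 match followed by the AHR core on the opposite strand.
Il18rap: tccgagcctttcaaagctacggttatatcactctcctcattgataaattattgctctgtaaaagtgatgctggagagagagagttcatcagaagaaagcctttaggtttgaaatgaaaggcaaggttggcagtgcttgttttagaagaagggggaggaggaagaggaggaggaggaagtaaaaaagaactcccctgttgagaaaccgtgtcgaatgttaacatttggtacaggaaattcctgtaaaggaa
Il11: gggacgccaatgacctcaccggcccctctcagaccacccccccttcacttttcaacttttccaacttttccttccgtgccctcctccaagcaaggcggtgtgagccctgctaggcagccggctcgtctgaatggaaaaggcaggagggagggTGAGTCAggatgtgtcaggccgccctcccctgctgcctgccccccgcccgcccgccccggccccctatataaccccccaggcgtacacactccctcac
Il5ra: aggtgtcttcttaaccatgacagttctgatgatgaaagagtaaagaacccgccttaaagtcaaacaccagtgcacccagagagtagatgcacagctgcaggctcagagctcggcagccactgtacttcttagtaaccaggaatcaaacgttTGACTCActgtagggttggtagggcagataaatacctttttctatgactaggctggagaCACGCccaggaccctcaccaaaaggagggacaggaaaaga
Windows were found for 64 members, 40 of them tested. Some genes have several windows, one for each start, and windows are counted here. An AP-1 match stood in 3 of the 5 windows of genes that fell, in 1 of 15 of those that rose and in 6 of 33 of those not called, beside 6.75% of all 32851 windows. The AHR core stood in 2 of 5, 4 of 15 and 7 of 33 in the same order, beside 28.2% of all windows. A GAS match stood in 3 of the 15 windows of genes that rose (7.02% of all windows) and an ISRE match in 0 of 15 (2.98% of all windows). These matches describe letters in short windows and show no binding.

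Members of the common gamma chain group gave the widest set of rises, with 5 of 7 tested receptor chains and 1 of 3 tested ligands. Il2rb, the beta chain of the IL-2 and IL-15 receptors on T and NK cells (chromosome 15, 78479256 to 78495271, GRCm38), was at 99.8, 23.1, 17.1, 15.8, 6.05 and 21.1 CPM in AHRKO replicates 1 to 6, against 1.68, 5.17, 7.55, 10.2, 2.23 and 2.90 CPM in WT replicates 1 to 6. All AHRKO values but that of replicate 5 lay above every WT value. Its log2 fold change was 2.62 ± 0.66 (adjusted p = 0.0114), and 1.75 without AHRKO replicate 1. Il2rg, the common gamma chain itself (chromosome X, 101264378 to 101268255), was at 46.3, 12.1, 11.2, 18.7, 7.34 and 11.1 CPM in AHRKO tumours, against 2.86, 7.17, 5.73, 3.27, 4.91 and 4.95 CPM in WT tumours. The groups did not overlap, and the log2 fold change was 1.88 ± 0.43 (adjusted p = 0.00689). In its exons 30.5% of bases are shared with Gm20489 on the same strand, which itself had a mean of 0.0198 CPM in AHRKO and 0 in WT.

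Il2ra, the alpha chain of the high-affinity IL-2 receptor on regulatory and activated T cells (chromosome 2, 11642807 to 11693193), was at 41.4, 9.44, 11.0, 9.17, 5.28 and 9.26 CPM in AHRKO tumours, against 0.546, 4.68, 5.13, 2.92, 4.07 and 3.95 CPM in WT tumours. The groups did not overlap, though the lowest AHRKO and highest WT values were close. It rose by 2.00 ± 0.56 on the log2 scale (adjusted p = 0.0178), and by 1.31 without AHRKO replicate 1. Il7r, the IL-7 receptor alpha chain of lymphocytes (chromosome 15, 9505788 to 9530176), was at 63.2, 12.4, 14.3, 6.50, 6.50 and 17.4 CPM in AHRKO tumours, against 2.90, 7.54, 6.53, 4.71, 4.86 and 4.85 CPM in WT tumours. AHRKO replicates 4 and 5 lay within the WT range, and the log2 fold change was 1.93 ± 0.53 (adjusted p = 0.0166), or 1.12 without AHRKO replicate 1. Il21r, the ligand-binding chain for IL-21 (chromosome 7, 125603429 to 125633570), was at 57.5, 16.5, 17.2, 20.1, 5.34 and 15.6 CPM in AHRKO tumours, against 3.19, 8.08, 7.78, 5.37, 6.01 and 5.52 CPM in WT tumours. Only AHRKO replicate 5 overlapped WT, and the log2 fold change was 1.88 ± 0.45 (adjusted p = 0.00920). With the leukocyte score as a covariate the log2 fold changes of these 5 chains were 0.12 for Il2rb, 0.14 for Il2rg, 0.03 for Il2ra, -0.12 for Il7r and -0.08 for Il21r, none of them called.

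Il7, the stromal and epithelial cytokine that sustains T cells, rose with its receptor (chromosome 3, 7569994 to 7613760). Its levels were 4.33, 6.10, 4.81, 2.79, 1.48 and 5.38 CPM in AHRKO tumours, against 0.967, 0.771, 0.839, 2.00, 0.695 and 0.857 CPM in WT tumours. Overlap came from AHRKO replicate 5 and WT replicate 4 alone. On the log2 scale the difference was 2.03 ± 0.36 (adjusted p = 0.00216), a 4.07-fold higher level, and 1.82 with the leukocyte score as a covariate (adjusted p = 0.0390). Its highest library was AHRKO replicate 2, not replicate 1, and 1.85% of its exon bases lie opposite the antisense gene Gm16685, at 1.14 CPM in AHRKO and 0.375 CPM in WT. The other tested members of the group were not called: Il15ra, which presents IL-15, averaged 17.9 ± 15.8 CPM in AHRKO and 8.21 ± 3.80 CPM in WT (SD, n = 6 each), and Il15 averaged 5.50 ± 2.71 CPM in AHRKO and 5.57 ± 1.49 CPM in WT. Il4ra, the chain that binds IL-4, averaged 356 ± 86.1 CPM in AHRKO and 371 ± 81.1 CPM in WT, and Il4 averaged 3.88 ± 1.04 CPM in AHRKO and 3.45 ± 0.41 CPM in WT. Per length Il4ra was the most abundant member in both groups, at 59.3 CPM per kilobase of exon in AHRKO and 61.9 in WT.

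**Figure D2:**
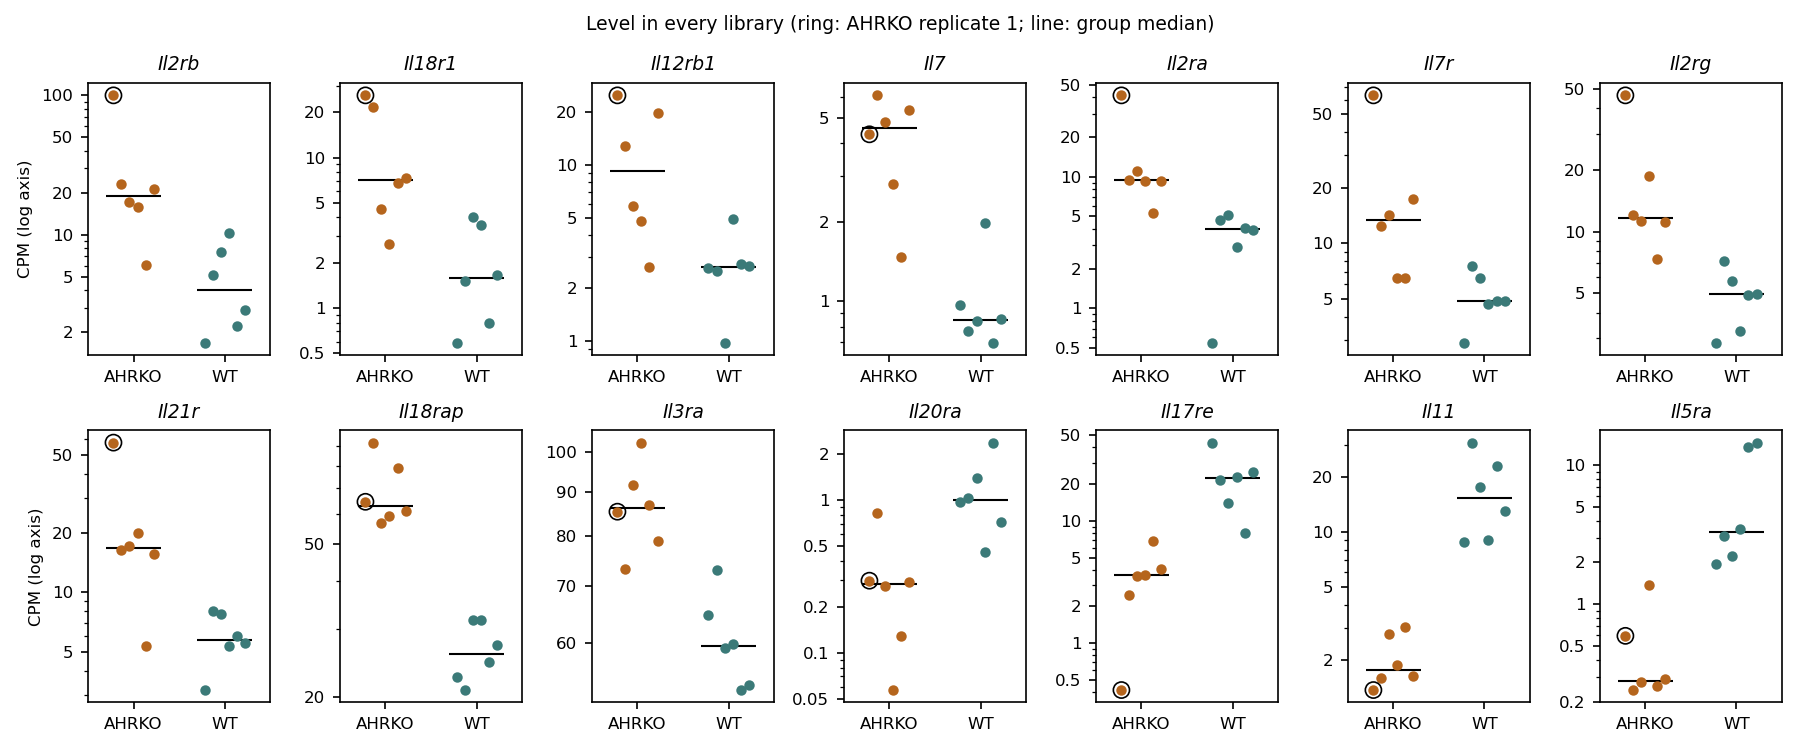
CPM (log axis) in each of the 6 AHRKO and 6 WT libraries for the 14 members given by library, with the group median as a line and AHRKO replicate 1 ringed. The ringed point is far above the other AHRKO points for the IL-2 and IL-7 receptor chains, sits among them for Il18rap, Il3ra and Il7, and is the lowest AHRKO point for Il17re and Il11.

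In the IL-1 family, both chains of the IL-18 receptor, the decoy receptor Il1r2, the antagonist Il18bp and the ligand Il1b rose. Il18rap, the accessory chain that completes the IL-18 receptor, lies beside Il18r1 at one end of a cluster of 6 receptor genes of this family on chromosome 1, between 40074079, where Il1r2 starts, and 40551705. Its levels were 64.4, 91.8, 56.6, 59.2, 79.0 and 60.8 CPM in AHRKO tumours, against 22.5, 20.8, 31.6, 31.7, 24.6 and 27.3 CPM in WT tumours. The groups were far apart and each was tight, the highest AHRKO library being 1.62 times the lowest. This gave a log2 fold change of 1.38 ± 0.15 (adjusted p = 0.000150), the smallest p of the members. With the leukocyte score as a covariate it was 1.45 (adjusted p = 0.000936), and without AHRKO replicate 1 it was 1.40. AHRKO replicate 2, its highest library, also had the highest summed level of 4 skeletal muscle markers, 240 CPM against 1.77 to 6.66 CPM in WT, and without that replicate the log2 fold change was 1.28 (adjusted p = 0.000360).

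Its partner behaved differently among AHRKO libraries. Il18r1, the chain that binds IL-18 (chromosome 1, 40465552 to 40500854), was at 25.9, 21.5, 4.53, 2.68, 6.76 and 7.35 CPM in AHRKO tumours, against 0.588, 1.51, 4.05, 3.58, 0.794 and 1.67 CPM in WT tumours. AHRKO replicate 4 lay within the WT range, and the highest AHRKO library was 9.66 times the lowest. Its log2 fold change was 2.50 ± 0.63 (adjusted p = 0.0119), and 1.16 with the leukocyte score as a covariate (adjusted p = 0.272). Il18bp, the secreted protein that binds and neutralises IL-18, had a lowest, median and highest level of 5.66, 15.6 and 45.0 CPM in AHRKO, against 4.20, 5.24 and 7.11 CPM in WT. The log2 fold change of Il18bp was 1.79 ± 0.40 (adjusted p = 0.00673). With the leukocyte score as a covariate it was 0.30 and not called (edgeR, adjusted p = 0.611). Il18 itself averaged 5.26 ± 1.91 CPM in AHRKO and 8.82 ± 4.11 CPM in WT (log2 fold change -0.74, adjusted p = 0.128).

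Il1b, the inflammatory cytokine of activated myeloid cells, had a lowest, median and highest level of 24.0, 40.4 and 123 CPM in AHRKO, against 8.19, 22.9 and 33.6 CPM in WT, so the groups overlapped. Its log2 fold change was 1.32 ± 0.40 (adjusted p = 0.0274), and the call was lost without WT replicate 4 or WT replicate 5. The call of Il1b was also lost with the leukocyte score as a covariate, at 0.18 (edgeR, adjusted p = 0.787). With the replicate block it was lost at 1.25 (edgeR, adjusted p = 0.0590). Il1r2, the decoy that binds IL-1 without signalling, averaged 18.5 ± 12.8 CPM in AHRKO and 8.18 ± 4.11 CPM in WT, with a log2 fold change of 1.17 ± 0.41 (adjusted p = 0.0462). Its value was 0.70 without AHRKO replicate 1 (adjusted p = 0.0930), and the call was also lost without AHRKO replicate 2, 3 or 4 or WT replicate 1, 4, 5 or 6, at values of 1.07 to 1.27. The receptor antagonist Il1rn was just outside the threshold, at 98.3 ± 66.8 CPM in AHRKO and 45.6 ± 21.9 CPM in WT (log2 fold change 1.11, adjusted p = 0.0548). Il1rn was called with DESeq2 (adjusted p = 0.0250), limma-voom (adjusted p = 0.0130) and the replicate block (edgeR, adjusted p = 0.0418), and without AHRKO replicate 5 or WT replicate 3. With the leukocyte score as a covariate it was at -0.13 and not called. The signalling receptor Il1r1 averaged 113 ± 43.2 CPM in AHRKO and 124 ± 23.7 CPM in WT, and its accessory chain Il1rap 10.8 ± 7.03 CPM in AHRKO and 7.54 ± 3.57 CPM in WT, neither called. Il1a averaged 9.07 ± 6.03 CPM in AHRKO and 5.83 ± 3.25 CPM in WT, also not called.

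Il33, the alarmin held in the nuclei of barrier and stromal cells, was the most abundant ligand per length in both groups, at 35.5 CPM per kilobase in AHRKO and 53.5 in WT. Its mean level was 103 ± 36.7 CPM in AHRKO and 154 ± 32.7 CPM in WT, with a log2 fold change of -0.59 ± 0.22 (adjusted p = 0.0639), which became -0.78 without AHRKO replicate 1 (adjusted p = 0.00748). Il33 was also called with limma-voom (-0.74, adjusted p = 0.0113) and without WT replicate 4 (-0.69, edgeR, adjusted p = 0.0436). With the leukocyte score as a covariate it was called at -1.05 (edgeR, adjusted p = 0.0191). In 16 of the 20 alternatives Il33 stayed uncalled. Its receptor Il1rl1 (ST2) averaged 19.8 ± 12.8 CPM in AHRKO and 15.1 ± 9.78 CPM in WT, with no call. The IL-36 receptor Il1rl2 averaged 26.7 ± 19.9 CPM in AHRKO and 23.5 ± 7.56 CPM in WT, and Il1f9, which encodes the ligand IL-36 gamma, 3.56 ± 2.96 CPM in AHRKO and 1.99 ± 1.27 CPM in WT, neither called.

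Among the receptors of the type 2 and common beta chain cytokines, Il3ra rose and Il5ra fell. Il3ra, the IL-3 receptor alpha chain found on myeloid progenitors, mast cells, basophils and endothelium (chromosome 14, 14346275 to 14356011), was at 85.3, 73.3, 91.8, 103, 86.9 and 78.9 CPM in AHRKO tumours, against 64.6, 72.9, 59.2, 59.9, 52.9 and 53.6 CPM in WT tumours. The groups did not overlap, with AHRKO replicate 2 only just above WT replicate 2. The log2 fold change was small, 0.51 ± 0.10 (adjusted p = 0.00339), and nearly the same with the leukocyte score as a covariate, at 0.48 (adjusted p = 0.0361). Of 6 mast cell markers 5 rose, with summed levels of 50.6 to 146 CPM in AHRKO and 16.7 to 65.6 CPM in WT. Among them Fcer1a averaged 0.388 CPM in WT and passed the filter mainly through AHRKO, so its call could hardly be other than a rise. The part of mast cells in the rise of Il3ra was not tested.

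Il5ra, the IL-5 receptor alpha chain of eosinophils and some B cells (chromosome 6, 106710357 to 106749037, with its promoter printed above), was at 0.593, 0.242, 0.275, 1.37, 0.257 and 0.289 CPM in AHRKO tumours, against 1.93, 3.11, 2.24, 3.48, 13.6 and 14.5 CPM in WT tumours. The groups did not overlap, and WT replicates 5 and 6 were well above the other WT libraries. The level rests on 52 counts summed over the AHRKO libraries and 850 over the WT libraries. Il5ra fell with a log2 fold change of -3.66 ± 0.69 (adjusted p = 0.00264), and of -3.87 with the leukocyte score as a covariate (adjusted p = 0.0378). The 4 eosinophil markers summed to 3.02 to 16.4 CPM in AHRKO and 1.23 to 3.14 CPM in WT. Of them Siglecf, a lectin of eosinophils and alveolar macrophages, rose, at 3.73 ± 1.44 CPM in AHRKO and 0.974 ± 0.319 CPM in WT (log2 fold change 1.92, adjusted p = 0.000967). The chemokine receptor Ccr3 averaged 3.12 CPM in AHRKO and 0.994 CPM in WT (adjusted p = 0.0603), and the granule genes Prg2 and Epx, too low to test, averaged 1.02 and 0.00964 CPM in AHRKO against 0.215 and 0.0227 CPM in WT. Of the 6 B and plasma cell markers 4 were tested and all 4 rose, with a sum over the list of 3.92 to 233 CPM in AHRKO and 1.47 to 16.8 CPM in WT. Cd79a, Cd79b and Mzb1 averaged 0.448, 0.358 and 0.485 CPM in WT and passed the filter mainly through AHRKO. A call for these could hardly be other than a rise. Il13ra1, the signalling chain for IL-13, averaged 89.7 ± 20.9 CPM in AHRKO and 69.1 ± 15.9 CPM in WT, and the decoy Il13ra2 3.33 ± 3.46 CPM in AHRKO and 2.21 ± 1.28 CPM in WT, neither called.

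In the gp130 group Il11 fell and Il27ra rose. Il11, a cytokine that acts on fibroblasts and epithelium (chromosome 7, 4772373 to 4782859, with a promoter printed above), was at 1.36, 1.60, 2.75, 1.88, 3.02 and 1.62 CPM in AHRKO tumours, against 8.83, 30.8, 17.6, 9.01, 22.9 and 12.9 CPM in WT tumours. Every AHRKO library lay below every WT library. Il11 fell with a log2 fold change of -3.06 ± 0.35 (adjusted p = 0.000188), the second smallest p of the members, and it was -3.06 with the leukocyte score as a covariate (adjusted p = 0.00160). Il11ra1, its receptor, averaged 80.7 ± 56.5 CPM in AHRKO and 64.1 ± 21.3 CPM in WT and was not called. Il11ra1 has the near-identical copies Il11ra2, so its counts are uncertain. No Il11ra2 record held more than 2 counts in a library, which does not lessen this where reads match several copies. Il6, at 1.85 ± 1.06 CPM in AHRKO and 2.30 ± 1.88 CPM in WT, Il6ra, at 22.9 ± 9.79 CPM in AHRKO and 18.2 ± 2.41 CPM in WT, and Il6st, which encodes gp130, at 279 ± 124 CPM in AHRKO and 215 ± 28.7 CPM in WT, were not called.

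Il27ra, the specific chain of the IL-27 receptor on lymphocytes, averaged 7.73 ± 5.91 CPM in AHRKO and 3.01 ± 0.83 CPM in WT. Its log2 fold change was 1.36 ± 0.41 (adjusted p = 0.0249), 0.84 without AHRKO replicate 1, and the call was lost without WT replicate 1, 4 or 5. In the IL-12 group Il12rb1, the chain shared by the IL-12 and IL-23 receptors (chromosome 8, 70808449 to 70821424), was at 24.9, 12.8, 5.84, 4.79, 2.64 and 19.8 CPM in AHRKO tumours, against 2.61, 2.51, 0.979, 4.91, 2.73 and 2.67 CPM in WT tumours. AHRKO replicates 4 and 5 lay within the WT range, and WT replicate 4 was the highest WT library. The log2 fold change was 2.11 ± 0.53 (adjusted p = 0.0116), and 0.91 with the leukocyte score as a covariate (adjusted p = 0.417). The second IL-12 receptor chain, Il12rb2, averaged 5.08 ± 3.41 CPM in AHRKO and 2.99 ± 0.43 CPM in WT and was not called. Of its exon bases 40.0% lie opposite Serbp1, a gene at 446 CPM in AHRKO and 350 CPM in WT, and the strand setting of the counting is not given in the sources used here.

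Receptors of the IL-10 group divided. Il10ra, the IL-10 binding chain of leukocytes, had a lowest, median and highest level of 21.4, 39.2 and 140 CPM in AHRKO, against 9.50, 15.6 and 21.9 CPM in WT, and its log2 fold change was 1.69 ± 0.42 (adjusted p = 0.0102), or 1.11 without AHRKO replicate 1. Il10rb, the chain shared by the receptors of IL-10, IL-22 and interferon lambda, had 29.9, 30.6 and 53.9 CPM in AHRKO, against 18.1, 21.6 and 26.5 CPM in WT. Its groups did not overlap, 14.9% of its exon bases are shared with Gm21970, which had 0 counts, and the log2 fold change was 0.68 ± 0.16 (adjusted p = 0.00755). With the leukocyte score as a covariate it was 0.15 and not called (edgeR, adjusted p = 0.431). Il20ra, a receptor chain of epithelium for IL-19, IL-20 and IL-24 (chromosome 10, 19712570 to 19760053), was at 0.297, 0.823, 0.275, 0.0570, 0.129 and 0.289 CPM in AHRKO tumours, against 0.967, 1.03, 1.40, 0.461, 2.38 and 0.714 CPM in WT tumours. Only AHRKO replicate 2 overlapped WT, but the levels rest on 34 counts in all AHRKO libraries and 161 in all WT libraries. The log2 fold change was -1.83 ± 0.52 (adjusted p = 0.0208), and it was -1.50 without WT replicate 5 (adjusted p = 0.0514). With the leukocyte score as a covariate it was -2.16 and not called (adjusted p = 0.0813), and Il20ra did not pass the stricter filter. Il10, at 1.37 ± 0.82 CPM in AHRKO and 0.833 ± 0.279 CPM in WT, Il20rb, at 6.22 ± 1.01 CPM in AHRKO and 5.59 ± 0.72 CPM in WT, and the epithelial IL-22 receptor Il22ra1, at 12.4 ± 7.37 CPM in AHRKO and 14.0 ± 3.25 CPM in WT, were not called.

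In the IL-17 group Il17ra rose, Il17re fell, and Il17rc, which lies beside Il17re, was not called. Il17re, the epithelial chain that pairs with IL-17RA to bind IL-17C (chromosome 6, 113458484 to 113470758), was at 0.415, 2.47, 3.57, 3.65, 6.88 and 4.05 CPM in AHRKO tumours, against 43.6, 21.5, 14.0, 22.9, 8.04 and 25.1 CPM in WT tumours. The groups did not overlap, and AHRKO replicate 1, the library with the lowest epithelial markers, was the lowest of all 12. The log2 fold change was -2.69 ± 0.52 (adjusted p = 0.00309), -2.45 without AHRKO replicate 1, and -1.02 with the leukocyte score as a covariate (adjusted p = 0.121). Il17rc, the second chain of the IL-17A and IL-17F receptor, starts at 113471427 on the same strand, just past the end of Il17re, and was above every WT library in 5 of 6 AHRKO libraries. It was at 49.7 CPM in AHRKO replicate 1 and at 90.0 to 92.9 CPM in the other AHRKO libraries, against 52.9 to 78.3 CPM in WT. Over all libraries its log2 fold change was 0.39 ± 0.16 (adjusted p = 0.0823), and without AHRKO replicate 1 it was 0.50 (adjusted p = 0.00300). Il17rc was also called with limma-voom, at 0.47 (adjusted p = 0.00751), and by edgeR with the leukocyte score as a covariate, at 0.92 (adjusted p = 0.00172).

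Il17ra, the chain shared by the IL-17 receptors, had a lowest, median and highest level of 42.5, 56.6 and 102 CPM in AHRKO, against 24.8, 32.3 and 45.0 CPM in WT. The log2 fold change of Il17ra was 0.89 ± 0.22 (adjusted p = 0.0102). With the leukocyte score as a covariate it was 0.11 and not called (edgeR, adjusted p = 0.676). Il17rd averaged 22.9 ± 4.19 CPM in AHRKO and 29.9 ± 6.06 CPM in WT, and the ligands Il17c and Il17d 0.514 ± 0.132 and 1.56 ± 0.23 CPM in AHRKO, against 0.680 ± 0.265 and 1.74 ± 0.45 CPM in WT, with no call. Outside these families, Il16, a lymphocyte chemoattractant, averaged 10.1 ± 9.43 CPM in AHRKO and 3.62 ± 1.77 CPM in WT (log2 fold change 1.47 ± 0.49, adjusted p = 0.0390). Its value was 0.78 without AHRKO replicate 1 (adjusted p = 0.0730), and the call was also lost without AHRKO replicate 2 or 4 or WT replicate 1, 4, 5 or 6, at 1.32 to 1.55. Of its exon bases 15.3% lie opposite Stard5, at 24.0 CPM in AHRKO and 16.7 CPM in WT. Il34, a ligand of the macrophage receptor CSF1R, averaged 23.4 ± 5.51 CPM in AHRKO and 20.7 ± 3.53 CPM in WT and was not called.

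**Figure D3:**
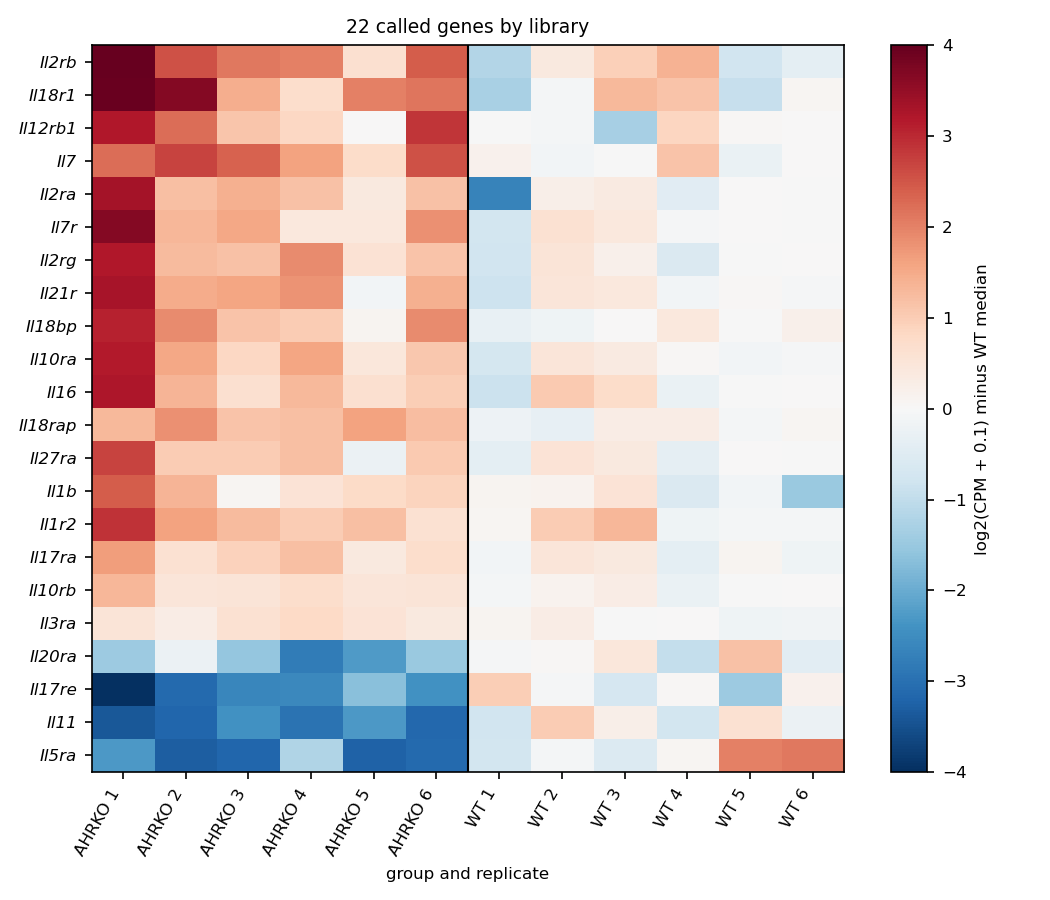
The 22 called members by library, AHRKO left of WT, coloured by log2(CPM + 0.1) minus the WT median of the gene. The column of AHRKO replicate 1 is the deepest red for most rises, the row of Il18rap is even across the 6 AHRKO libraries, and Il11, Il17re and Il5ra are blue in all 6.

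Levels without overlap between the groups were found in 8 members. Every AHRKO library was above every WT library for Il18rap, Il3ra, Il10rb, Il2rg and Il2ra, 5 of the 50 tested, beside 6.03% of all tested genes. Every AHRKO library was below every WT library for Il11, Il5ra and Il17re, 3 of the 50, beside 7.35% of all tested genes. Among these falls, Il5ra passed the filter mainly through its WT levels. Per length, the highest members in AHRKO were Il4ra, Il33, Il17rc, Il3ra and Il1b, at 59.3, 35.5, 31.6, 29.1 and 27.9 CPM per kilobase, against 61.9, 53.5, 24.2, 20.4 and 11.2 in WT. Il11 stood at 0.980 CPM per kilobase in AHRKO and 8.17 in WT.

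Antagonists, decoys and partner chains were also compared within each library, as log2 ratios of CPM, with an exact two-sided permutation test over 924 assignments of the libraries and adjustment over the 11 pairs formed. The smallest p this test can give is 0.00216. The decoy Il1r2 over the signalling receptor Il1r1 averaged -2.74 ± 0.43 in AHRKO and -4.02 ± 0.41 in WT (SD, n = 6 each), a difference of 1.28 (adjusted p = 0.0238), with 6 of 6 AHRKO libraries above all WT libraries. Il18bp over Il18 averaged 1.61 ± 1.12 in AHRKO and -0.57 ± 0.57 in WT, a difference of 2.17 (adjusted permutation p = 0.0397), with 5 of 6 AHRKO libraries above all WT libraries. These ratios are not corrected for gene length, so only their differences between groups are read. The ratios were not fitted with the leukocyte score, and the part of cell content in their differences was not tested. Il1rn over Il1a differed by 0.42 (adjusted permutation p = 0.0397, 4 of 6 AHRKO libraries above all WT), whereas Il1rn over Il1b differed by -0.17 (adjusted permutation p = 0.497). Il12rb2 over Il12rb1 averaged -0.97 ± 0.79 in AHRKO and 0.24 ± 0.76 in WT (adjusted permutation p = 0.0536). The remaining differences were 1.00 for Il15ra over Il15 and 1.01 for Il1rl1 over Il33 (both adjusted permutation p = 0.0794), -0.92 for Il18rap over Il18r1 (0.224), 0.68 for Il2rb over Il2rg (0.250), -0.31 for Il13ra2 over Il13ra1 and -0.04 for Il6ra over Il6st (both 0.684).

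**Figure D4:**
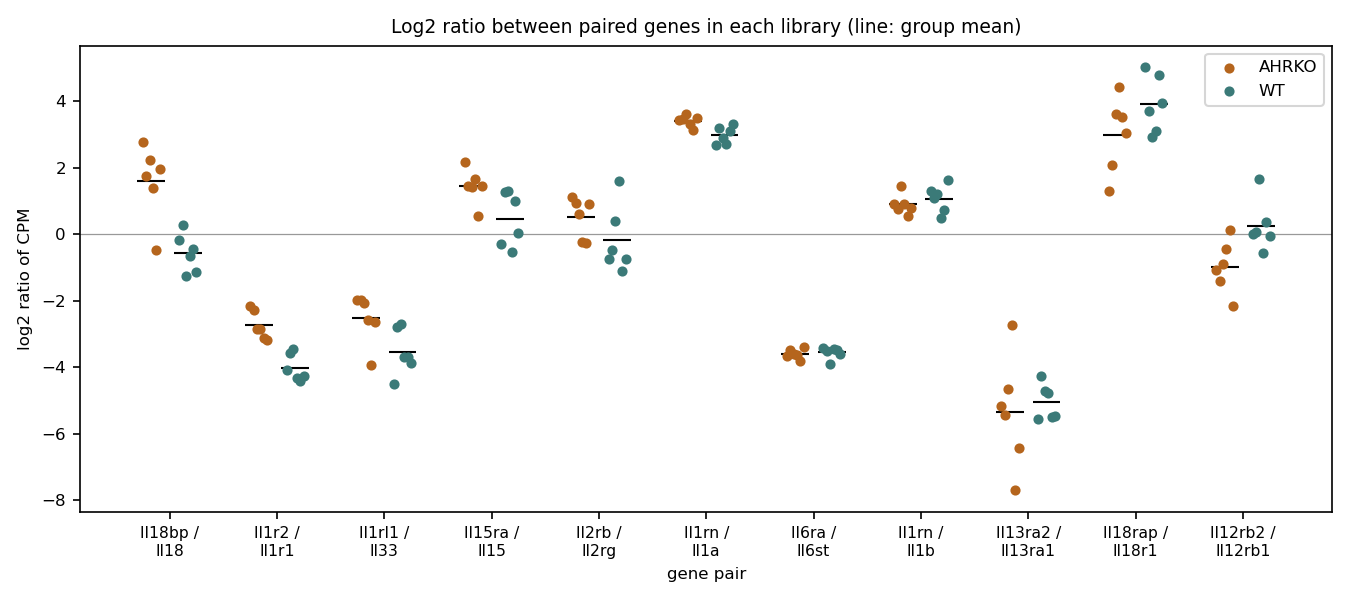
Log2 ratio of CPM between paired genes (y axis) in each library, AHRKO left of WT for each pair, with the group mean as a line. For Il1r2 over Il1r1 the 6 AHRKO points lie above the 6 WT points, and for Il18bp over Il18 only AHRKO replicate 5 lies among the WT points.

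The genes that process, accompany or relay interleukins were taken from a list of 57, of which 54 were tested. Of these 54, 20 rose and 6 fell, beside 15.9% and 13.6% of all tested genes, and their median log2 fold change was 0.20. Of the 7 genes that process IL-1 and IL-18, 6 rose and 1 fell, and their summed level was 238 to 383 CPM in AHRKO tumours against 120 to 162 CPM in WT tumours, without overlap. Gsdmd gave most of this sum, at 156 to 184 CPM in AHRKO against 77.6 to 117 CPM in WT. Taken singly, Aim2, Casp1 and Casp4 did not overlap either, whereas Pycard, Nlrp3 and Nlrc4 did. Aim2, a sensor of cytosolic DNA that activates caspase-1, averaged 23.0 ± 8.88 CPM in AHRKO and 4.44 ± 1.15 CPM in WT (log2 fold change 2.37 ± 0.27, adjusted p = 0.000188). Gsdmd, the pore through which mature IL-1 leaves cells, averaged 167 ± 10.3 CPM in AHRKO and 96.6 ± 16.6 CPM in WT (0.79 ± 0.11, adjusted p = 0.000529), and Casp4, the mouse caspase-11, 26.3 ± 10.4 CPM in AHRKO and 7.17 ± 2.59 CPM in WT (1.87 ± 0.31, adjusted p = 0.00140). The fall, named after its value was seen, was that of Nlrc4, at -0.78. With the leukocyte score as a covariate 4 of the 6 rises were still called, with Aim2 at 1.80, Gsdmd at 0.96 and Casp4 at 1.12. Pycard and Nlrp3, adaptor and sensor of the inflammasome, were at 2.08 and 1.18 without the covariate, against 0.010 and -0.13 with it, and lost their calls, as did Nlrc4, at -0.65 (adjusted p = 0.120).

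Of 18 tested partner chains and ligands 8 rose and 4 fell. The 3 with the smallest p were Ctf1 and Clcf1, ligands of gp130 receptors, and Csf2ra, the GM-CSF receptor alpha chain of myeloid cells. Ctf1 averaged 1.81 ± 0.61 CPM in AHRKO and 3.77 ± 0.77 CPM in WT (log2 fold change -1.05 ± 0.23, adjusted p = 0.00633), Clcf1 92.8 ± 21.4 CPM in AHRKO and 158 ± 26.5 CPM in WT (-0.77 ± 0.17, adjusted p = 0.00691), and Csf2ra 85.8 ± 54.4 CPM in AHRKO and 30.7 ± 6.45 CPM in WT (1.48 ± 0.34, adjusted p = 0.00709). Lif, a further gp130 ligand named after its value was seen, also fell (log2 fold change -1.06). Of 7 STAT factors 3 rose, among them Stat2, which relays interferon (86.5 ± 47.8 CPM in AHRKO, 37.9 ± 6.27 CPM in WT, log2 fold change 1.19), and Stat4, which relays IL-12 (2.09). Of 14 adaptors and kinases of the IL-1 and IL-17 receptors, Irak2 (0.42) and Myd88 (0.43) rose. Of 4 JAK kinases, Jak3, the partner of the common gamma chain, fell (149 ± 20.6 CPM in AHRKO, 192 ± 27.6 CPM in WT, -0.36, adjusted p = 0.0322), while the chain itself rose. Among the 4 feedback inhibitors Socs1 rose, to 54.7 ± 29.6 CPM in AHRKO against 11.7 ± 2.51 CPM in WT (log2 fold change 2.22, adjusted p = 0.00175). With the leukocyte score as a covariate 5 of the 20 pathway rises and 1 of the 6 falls kept their call. The log2 fold changes were then 0.049 for Csf2ra, 0.28 for Stat2, 0.0014 for Stat4, -0.042 for Myd88, 0.89 for Socs1, -0.15 for Clcf1, -0.68 for Ctf1 and -0.36 for Jak3, none of them called, whereas Irak2, at 0.60, and Lif, at -1.30, kept theirs.

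Most ligands were too low to test: 23 of 40 ligands or antagonists and 10 of 43 receptor chains did not pass the filter on low counts. Of these 33 records 7 had 0 counts in every library, namely Il3, Il17a, Il20, Il31, Il1rapl1 and both scaffold copies of Il11ra2. Il12b, the shared subunit of IL-12 and IL-23 made by dendritic cells and macrophages, had 219 counts summed over the AHRKO libraries and 18 over the WT libraries, at 0.386 to 8.13 CPM in AHRKO against 0.0420 to 0.233 CPM in WT, so its groups did not overlap. Il13 had 130 counts in AHRKO and 19 in WT, Il27 119 in AHRKO and 27 in WT, Il9r 80 in AHRKO and 20 in WT, and Il17rb 75 in AHRKO and 33 in WT. Much of some sums came from 1 library. AHRKO replicate 4 held 76 of the Il13 counts, and AHRKO replicate 1 held 137 of the Il12b, 64 of the Il27 and 39 of the Il9r counts. Unlike Il12b, all of Il13, Il27, Il9r and Il17rb overlapped between the groups, with Il13 at 0 in AHRKO replicate 5. Il12a, Il23a, Il24, Il31ra and Il5 also reached 10 counts in a library. Their sums were 24, 32, 82, 63 and 28 counts over the AHRKO libraries, against 14, 39, 53, 40 and 5 counts over the WT libraries. When the filter was left off, Il12b, Il13, Il9r, Il27 and Il17rb rose among the members that had failed it, and none fell. The log2 fold changes of these rises were 4.04, 3.14, 2.44, 2.48 and 1.61, with adjusted p of 0.00410, 0.0282, 0.0203, 0.0377 and 0.0488 by edgeR. In WT the same genes averaged only 0.117, 0.138, 0.137, 0.194 and 0.236 CPM. A call for any of them could hardly be other than a rise. Another 16 records stayed under 10 counts in every library, among them Il2, Il9, Il21, Il22, Il23r and Il25.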

How the data were processed

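Bulk mRNA was measured in 12 tumour samples, 6 AHRKO and 6 WT. The authors deposited raw counts of reads for each gene, checked to be whole numbers. Per the submitters' processing notes, reads were handled with HISAT2, SAMtools, HTSeq and DESeq2 on mm10; for versions, annotation and strand setting the sources used here say nothing. The labels' extraction text names tumours, while other label texts speak of compounds given to cultures, and no sample label names a compound. No 2 libraries of a group agreed within sampling noise (lowest chi-squared per degree of freedom 13.7).

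Symbols and positions came from GENCODE M21 by Ensembl identifier. Genes were kept by filterByExpr, which left 15449, and scaled by TMM. The comparison of AHRKO with WT used the quasi-likelihood test of edgeR (two-sided), and calls were made at a Benjamini-Hochberg adjusted p under 0.05 over the 15449 genes (R 4.3.3, edgeR 4.0.16, limma 3.58.1, DESeq2 1.42.0). The SE of a log2 fold change is its size divided by the square root of F. Logarithms of CPM used a prior count of 2. The pipeline was tested on simulated data. Depth limits only the counting error; errors given are those among libraries. Alternatives were DESeq2, limma-voom with quality weights, other scalings and filters, a replicate block, the leukocyte score as a covariate, a prior count of 0.5, and leaving out each library.

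Every called member is named. The 8 largest rises and falls and the 6 smallest p are given by library, uncalled tested members by group means, untested members where a library reached 10 counts, and up to 3 other pathway genes per role. Not all pathway genes meeting it are reported here. The members and lists were chosen with earlier results of these data known. Same-numbered replicates did not pair, so no block was used.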

Additional observations from a re-analysis of the deposited data

Results flagged for a closer look

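Among 100 groups of 6 libraries, for the 50 tested members, 10 had a highest or lowest value that stood far from the rest of its group. Chance gives about 1 in 20 for independent groups. These groups share the same libraries, so the count cannot be judged against that rate. In 5 of the 10, AHRKO replicate 1 was the highest AHRKO library: Il10rb at 53.9 CPM, Il12rb2 at 11.9 CPM, Il16 at 29.1 CPM, Il2ra at 41.4 CPM and Il6st at 531 CPM. The same library was far below the other AHRKO libraries for Il17rc, at 49.7 CPM. This is the library with the highest leukocyte score and the lowest epithelial marker sum. The others were AHRKO replicate 4 with the lowest Il17rd, at 14.7 CPM, WT replicate 1 with the lowest Il2ra, at 0.546 CPM, WT replicate 2 with the lowest Il17c, at 0.200 CPM, and WT replicate 4 with the highest Il7 in its group, at 2.00 CPM.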

How the results depend on the processing

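Same-numbered libraries correlated at -0.47, -0.21, -0.11, -0.14, -0.11 and 0.03 in their deviations from the group means, and 0 of 6 matched their own number best, so the numbers pair nothing. With the replicate block all the same, 1114 genes rose and 1240 fell, 5 members rose and 10 other pathway genes rose. The ratios were then tested by flipping the signs of the differences between same-numbered libraries, a test that cannot give a p under 0.03125. Adjusted over the 11 pairs, it could hardly give a call. It put the differences in ratio of 0.42 for Il1rn over Il1a, 1.28 for Il1r2 over Il1r1 and 2.17 for Il18bp over Il18 at an adjusted sign-flip p of 0.138. With the leukocyte score as a covariate 5 members rose, 10 fell and 8 other pathway genes rose; the cause was not tested. DESeq2, with all 83 members entered, gave 25 member rises, and limma-voom gave 21 among the 50. With no filter 22 rose, 5 of them members that had failed it. Of these 3 counts, only that of limma-voom shares the base of the main fit, where 18 of 50 rose. Over all genes, rises numbered 3257 with DESeq2 against 2451 in the main fit. They were also more numerous with limma-voom, and fewer with no filter.

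Leaving out each library in turn gave 1822 to 2980 rises and 1632 to 2778 falls over all genes, 15 to 21 rises and 3 to 5 falls of members, and 15 to 22 rises and 5 to 9 falls of other pathway genes. The leukocyte score then differed by 1.18 to 1.72. Differences in ratio ran from 0.36 to 0.49 for Il1rn over Il1a, 1.94 to 2.59 for Il18bp over Il18, 1.17 to 1.40 for Il1r2 over Il1r1, 0.80 to 1.18 for Il15ra over Il15, -1.44 to -0.93 for Il12rb2 over Il12rb1 and 0.82 to 1.30 for Il1rl1 over Il33. They ran from -0.83 to 0.16 for Il13ra2 over Il13ra1 and -0.11 to 0.0018 for Il6ra over Il6st, each reversed without AHRKO replicate 5. Il1rn over Il1a and Il18bp over Il18 lost their adjusted p in 8 and 6 of these 12.

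Reversals of single genes, as log2 fold changes, came mostly with the leukocyte score as a covariate, the cause not tested: Il10 -0.40, Il10ra -0.089, Il11ra1 -1.14, Il12rb2 -0.43, Il13ra1 -0.083, Il13ra2 -1.02, Il15ra -0.87, Il16 -0.43, Il1a -0.44, Il1f9 -0.45, Il1r2 -0.083, Il1rap -0.99, Il1rl1 -1.15, Il1rl2 -1.47, Il1rn -0.13, Il21r -0.077, Il22ra1 1.27, Il27ra -0.36, Il6ra -0.39, Il6st -0.36 and Il7r -0.12. Members not called in the main comparison also reversed elsewhere: Il11ra1 to -0.020, Il13ra2 to -0.037 and Il1rl2 to -0.13 with limma-voom, and Il1rl2 to -0.066 with the replicate block. Leaving out 1 library gave -0.14 to 0.47 for Il11ra1 and -0.32 to 0.35 for Il1rl2, reversed without AHRKO replicate 1, -0.37 to 0.056 for Il22ra1, reversed without the same library, and -0.14 to 0.85 for Il13ra2, reversed without AHRKO replicate 4. It gave -0.32 to 0.12 for Il15, -0.18 to 0.044 for Il4ra and -0.68 to 0.12 for Il6.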
